A study of Mus musculus with 94 samples.

Results

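Genes of 9 enzymes that compete for arginine or open the breakdown of tryptophan were followed in 4T1 mammary tumors after radiation, indomethacin or both. They are the nitric oxide synthases Nos1, Nos2 and Nos3, the arginases Arg1 and Arg2, the citrulline-to-arginine enzymes Ass1 and Asl, and the tryptophan-opening enzymes Ido1 and Tdo2. They were taken by symbol, and all 9 of 9 were found among the 49080 genes of the table. 4T1 is a triple-negative mammary carcinoma line of BALB/c origin. Its cells were implanted under the skin of the right hind limb of female BALB/c mice aged 8 weeks, so the host kept its immune system. Treatment began at a tumor volume of 100 to 200 mm3. The 94 tumors, analysed as bulk tissue by total RNA sequencing, formed 4 treatment arms. The study's methods name slices of the frozen tumors as the material for sequencing. Control tumors (n = 20) received neither treatment, and 6 Gy tumors (n = 25) received a single dose of 6 Gy of x-rays. INDO tumors (n = 25) came from mice that drank indomethacin, an inhibitor of the cyclooxygenases, at 30 mg/L for the rest of the experiment. 6 Gy + INDO tumors (n = 24) received both. Tumors were taken 1, 3, 7, 15 or 23 days after irradiation (IR), with 5 tumors per arm and day except for control on day 1 (4 tumors), control on days 15 and 23 (3 tumors each) and 6 Gy + INDO on day 3 (4 tumors). The model is 1 line at 1 site in 1 sex, and bulk tumor tissue mixes carcinoma cells with vessels, stroma and leukocytes.

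Nitric oxide synthases cut arginine into nitric oxide and citrulline. Nos1 is known as the neuronal form, Nos2 as the form that cytokines and microbial products induce in macrophages and many tumor cells, and Nos3 as the form of vessel endothelium. Arginases turn the same arginine into ornithine and urea, and high Arg1 is a feature of suppressive myeloid cells, whereas Arg2 is the mitochondrial isoform. Ass1 and Asl rebuild arginine from citrulline in succession. Ido1 and Tdo2 perform the first, oxygen-dependent step of the kynurenine pathway, Ido1 under the control of interferons and Tdo2 mostly in liver.

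Summed counts ran from 21 to 109 M per tumor, with medians of 73.4 M in control, 66.6 M in 6 Gy, 41.0 M in INDO and 37.5 M in 6 Gy + INDO. Levels are counts per M counts (CPM, M for mega) after trimmed-mean scaling. Log2 fold changes, with standard errors (SE), and p values adjusted by the Benjamini-Hochberg method over all genes tested come from edgeR's quasi-likelihood test, and a gene is said to rise or fall only where the adjusted p was under 0.05 under trimmed-mean scaling. For the 9 genes, other tools and scalings are named where they changed a call. The leave-out fits within a day dropped each tumor of every arm in turn, so some kept both compared groups whole. The p values set each difference against the spread between tumors, with every tumor treated as an independent replicate. Mice shared cages in the study, and indomethacin came with the drinking water, so tumors of a group may share a cage. Cage labels were not available, and a part of cage in the differences between arms was not tested. The 3 treated arms of a day were compared with the same control tumors, so their results are not independent. All 6 markers of the tumor epithelium were present in every tumor, Krt8 at 434 to 1310 CPM. In 11 tumors over 300 CPM fell on olfactory and vomeronasal receptor genes (median of all tumors 89.6, highest 1650), namely 3 of 4 tumors of 6 Gy + INDO on day 3, 3 of 5 on day 7 and 2 of 5 on day 23, plus 1 tumor each of control day 15, INDO day 1 and INDO day 15. Calls of the 9 genes that changed without these tumors are given both ways.

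Arg1 was the most abundant of the 9 transcripts per base of exon. Over all tumors its median was 92.8 CPM per kb of annotated exon, followed by Nos2 at 18.7, Ass1 at 16.7, Arg2 at 5.44 and Asl at 4.39. Ido1 (1.49 CPM per kb), Nos3 (1.22), Tdo2 (0.329) and Nos1 (0.0281) made up the lower part. The ranges over tumors of neighbours in this order overlapped, for example 23.9 to 294 CPM per kb for Arg1 and 0.777 to 88.5 for Nos2. The range was widest for Nos1, Nos2 and Ido1. Nos2 ran from 3.43 to 391 CPM and Ido1 from 0.15 to 12.9 CPM, whereas Asl stayed between 11.2 and 29.3 CPM. Nos1 reached 1 CPM in 14 of 94 tumors.

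**Figure D1:**
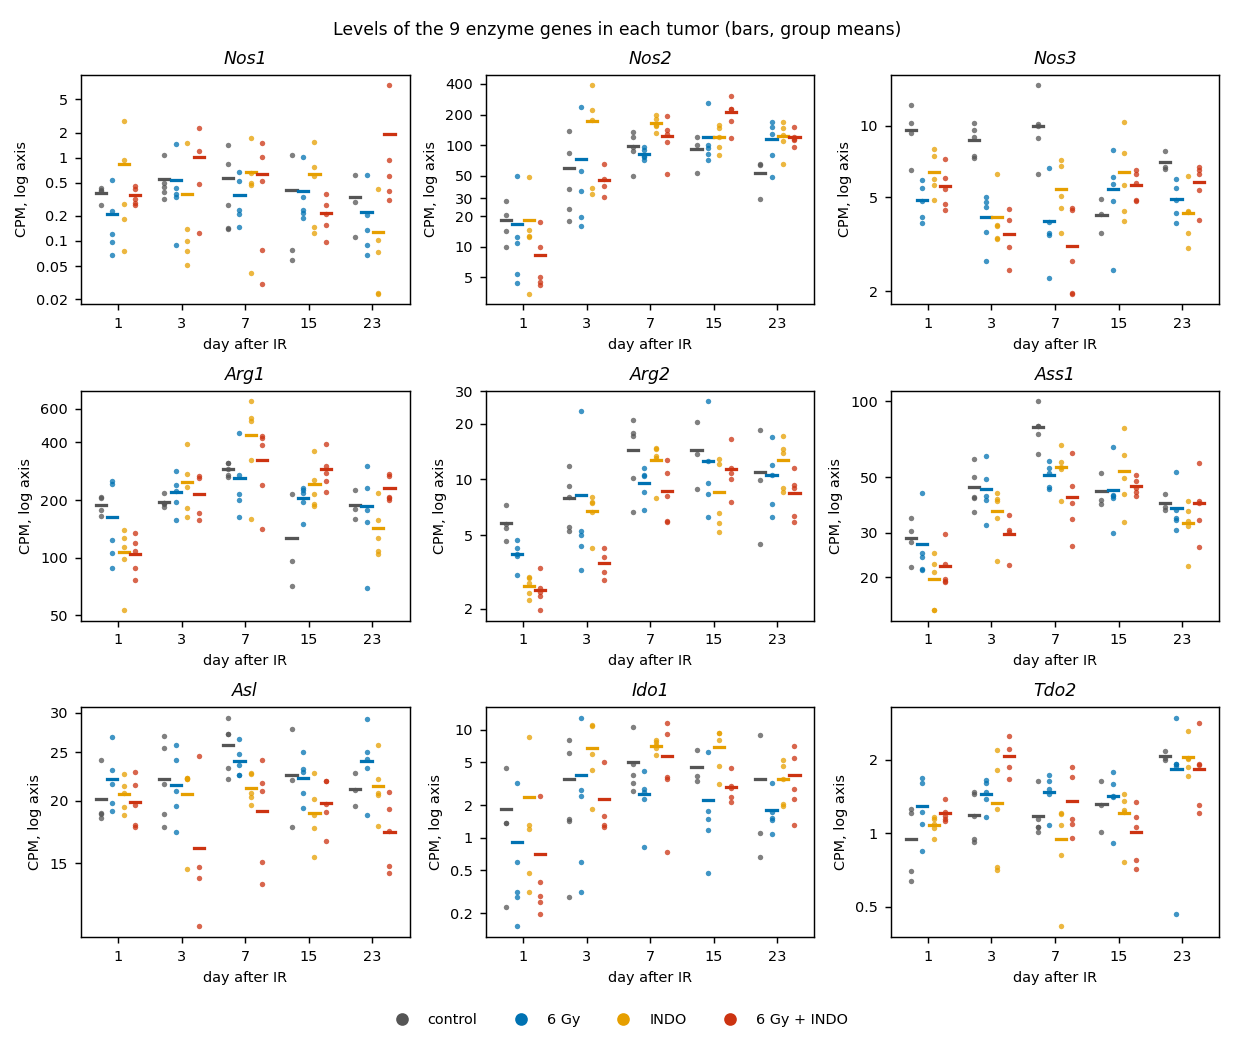
Level of each gene (CPM, log axis with its own range in each panel) in every tumor by day after IR. Points are tumors, bars are group means and colors are treatment arms. Nos2, Arg2 and Ass1 were lowest on day 1 in controls, and the Nos3 control tumors of days 1, 3 and 7 (6.29 to 14.9 CPM) lay mostly above the treated ones.

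In untreated controls 5 of the 9 genes differed between days (Nos2, Nos3, Arg2, Ass1 and Tdo2), beside 30.2% of all genes tested. Ass1 differed most clearly, from a mean of 28.6 CPM on day 1 to 79.2 on day 7 and 39.3 on day 23 (adjusted p = 3.03e-06). Nos2 went from a mean of 18.2 ± 7.91 CPM (SD, n = 4) on day 1 to 97.5 ± 32.5 (n = 5) on day 7 (adjusted p over the 5 days = 0.0207). Arg2 went from 5.78 to 14.5 CPM between the same days (0.0159), and Nos3 was at 10.0 on day 7 and 4.22 on day 15 (0.00767). Tdo2 was lowest on day 1 (0.95 CPM) and highest on day 23 (2.06 CPM, adjusted p = 0.0403). The Nos2 difference did not pass without day 1 (adjusted p = 0.417) or day 7 (0.0873), that of Arg2 without day 1 (0.216) or day 7 (0.09), that of Ass1 without day 7 (0.106), that of Nos3 without day 15 (0.574), and that of Tdo2 without day 1 (0.154), day 23 (0.589) or the high-receptor tumors (0.0506). Without 1 tumor number at a time the calls were lost in 2 of 5 fits for Nos2 and for Nos3, in 4 of 5 for Arg2, in 5 of 5 for Tdo2 and in none for Ass1. Under housekeeping scaling the differences of Nos2 (adjusted p = 0.0669) and Arg2 (0.0945) did not pass. With no filter on low counts that of Tdo2 did not pass (0.074). Arg1 (adjusted p = 0.0598, and 0.0465 to 0.0489 without day 1, 3 or 23), Asl (0.268), Ido1 (0.63) and Nos1 (0.932) did not pass.

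Against control on the same day, members fell on days 1, 3 and 7 and none passed on days 15 and 23. On day 1, 2 of 9 fell in 6 Gy beside 9.43% of all genes, 1 fell in INDO beside 8.89%, and 3 fell in 6 Gy + INDO beside 13.3%. None rose on that day, beside 6.15%, 5.81% and 10.7% of all genes. On day 3, 1 of 9 fell in each arm, beside 4.1%, 3.95% and 9.43% of all genes, and none rose, beside 3.62%, 2.38% and 10.1%. On day 7, 2 of 9 fell in 6 Gy (10.3% of all genes), none in INDO (11.7%) and 3 in 6 Gy + INDO (21.2%). The single rise was Nos2 in INDO on day 7, where 12.7% of all genes rose, against 5.69% in 6 Gy and 24.8% in 6 Gy + INDO. Scaling by 14 housekeeping genes, which turned most calls of all genes on day 7 to rises, added as rises Nos2 (1.01, adjusted p = 0.0033), Arg1 (0.78, 0.0323) and Tdo2 (0.86, 0.0139) in 6 Gy + INDO and Arg1 (0.90, 0.0391) in INDO. The median log2 change of the 9 genes was -0.78 in 6 Gy + INDO on day 1 and -0.60 in 6 Gy on day 7, beside medians of all genes of 0.02 and 0.02, and lay between -0.42 and 0.20 in the other 7 comparisons of these days.

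Days 15 and 23 gave few calls in any gene. On day 15 none of the 9 passed, beside 0% higher and 0% lower of all genes in 6 Gy, the same 0% and 0% in INDO, and 0.778% higher and 0.552% lower in 6 Gy + INDO. On day 23 none passed either, beside 0% in both directions in 6 Gy and in INDO and 0% higher and 0.00473% lower in 6 Gy + INDO. At an unadjusted p under 0.05 the edgeR test gave 1, 1 and 2 members on day 15 and 2, 2 and 2 on day 23, when 6.75%, 9.68% and 20.4% of all genes on day 15 and 14.2%, 13.3% and 25.6% on day 23 did so. DESeq2 called none in 6 Gy and INDO on either day, beside at most 0.496% of all genes in either direction. In 6 Gy + INDO it called 2 (Nos2 and Arg1) on day 15, beside 4.07% of all genes higher and 3.89% lower. On day 23 it called 1 (Nos2) in that arm, beside 5.42% higher and 3.04% lower.

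**Figure D2:**
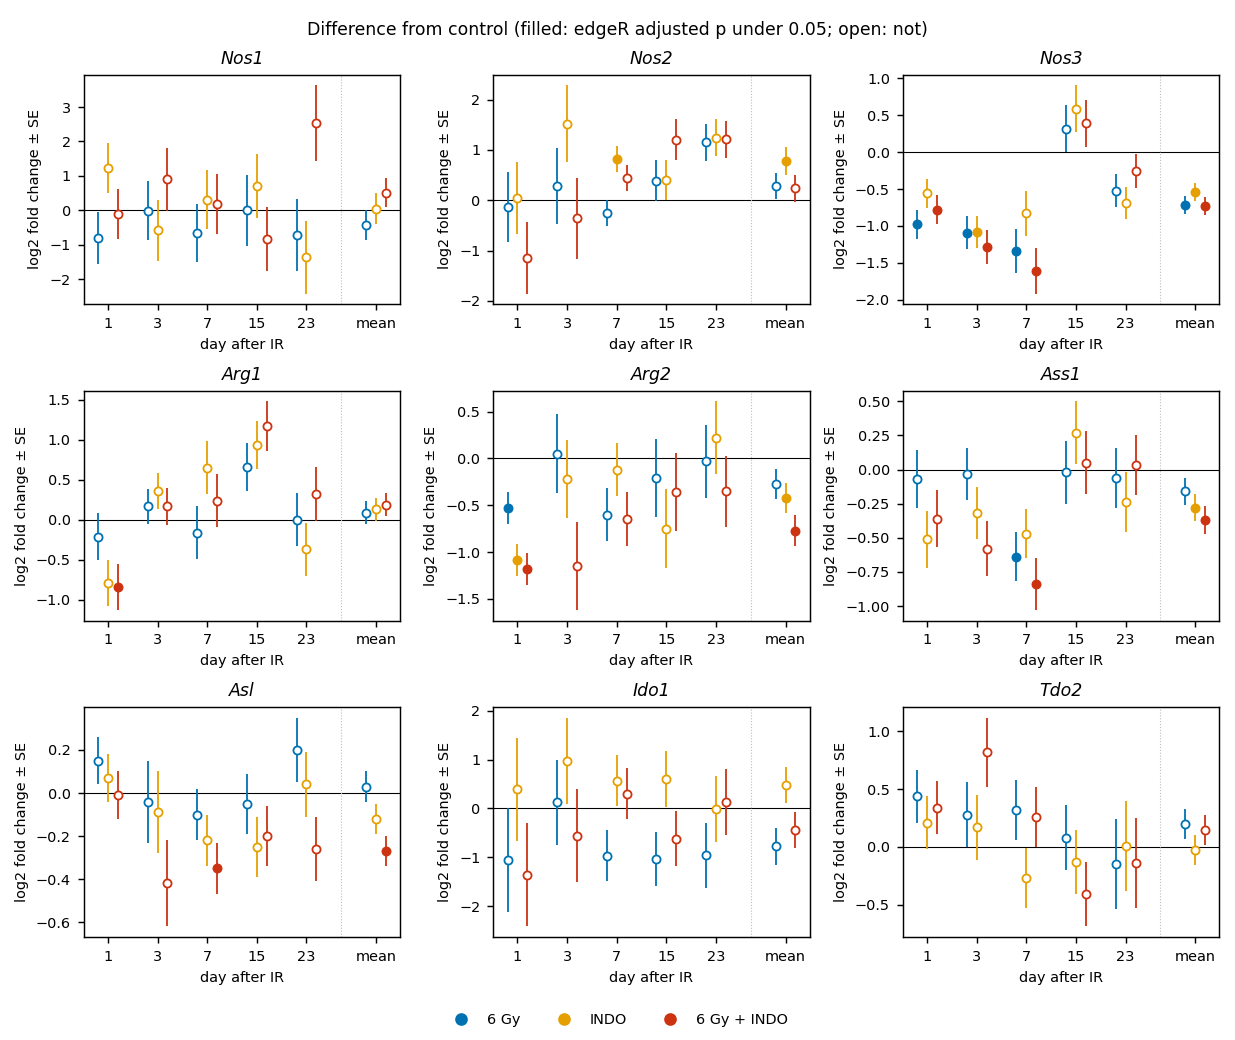
Log2 fold change against control (points) with its SE (bars) on each day and as the mean over days, for each gene with its own vertical range. Filled points passed an adjusted p of 0.05. Nos3 was filled and below 0 on days 1, 3 and 7 in 6 Gy and in 6 Gy + INDO, and no gene was filled on days 15 and 23.

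Nos3 (chr5:24364810-24384474, plus strand, mm10), the endothelial synthase, was the member that fell most regularly. On day 1 the 4 control tumors held 12.3, 10.3, 9.3 and 6.49 CPM. The 6 Gy tumors held 5.49, 3.88, 5.93, 4.81 and 4.12 CPM, and the 6 Gy + INDO tumors held 4.41, 4.69, 6.04, 5.43 and 7.25 CPM. Every 6 Gy tumor lay below every control tumor, and 1 of the 6 Gy + INDO tumors reached into the control range. Nos3 fell in 6 Gy (log2 -0.98, SE 0.20, adjusted p = 0.00237) and in 6 Gy + INDO (-0.78, SE 0.20, adjusted p = 0.00732). In INDO it stood at 5.6, 7.99, 4.84, 7.48 and 5.96 CPM (-0.56, SE 0.20, adjusted p = 0.0628 by edgeR and 0.0319 by DESeq2).

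On day 3 Nos3 fell in all 3 arms. Control tumors held 7.31, 7.46, 9.58, 10.3 and 9.02 CPM of Nos3, and 6 Gy tumors 2.68, 3.56, 4.75, 5.02 and 4.52 CPM. INDO tumors held 3.77, 3.37, 3.34, 6.29 and 3.81 CPM, and 6 Gy + INDO tumors 2.47, 3.07, 4.46 and 3.99 CPM. No treated tumor reached the lowest control. Nos3 fell by 1.09 on the log2 scale in 6 Gy (SE 0.22, adjusted p = 0.00583), by 1.08 in INDO (SE 0.22, adjusted p = 0.00703) and by 1.28 in 6 Gy + INDO (SE 0.23, adjusted p = 0.002). Without the high-receptor tumors 1 tumor of 6 Gy + INDO was left on day 3, assumed to vary like the other groups, and the change was -0.94 with an adjusted p of 0.342. The INDO change of day 3 did not pass under housekeeping scaling (-0.94, adjusted p = 0.0616).

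On day 7 the control tumors of Nos3 were at 8.87, 14.9, 9.99, 6.29 and 10.2 CPM. The 6 Gy tumors were at 3.93, 3.52, 6.67, 3.46 and 2.28 CPM, with 1 tumor above the lowest control, and 6 Gy + INDO tumors at 2.69, 4.41, 1.95, 4.51 and 1.96 CPM, with none. The changes were -1.34 in 6 Gy (SE 0.30, adjusted p = 0.00506) and -1.61 in 6 Gy + INDO (SE 0.31, adjusted p = 0.00066), and INDO stood at -0.83 (SE 0.30, adjusted p = 0.0513). That INDO change passed in DESeq2 (0.0213), with RLE factors (0.0441), with all 94 tumors in 1 fit (0.00867) and without the high-receptor tumors (0.0416). On day 15 control tumors were themselves low, at 4.89, 3.53 and 4.25 CPM, and treated tumors ran from 2.46 to 10.4 CPM. On day 23 the 3 controls held 6.69, 7.81 and 6.58 CPM and the treated arms 3.87 to 5.98, 3.06 to 6.12 and 3.99 to 6.73 CPM, with no overlap in 6 Gy (-0.52, SE 0.23, adjusted p = 0.324) or INDO (-0.69, SE 0.22, 0.311). The difference from control differed between days in 1 of 9 genes under 6 Gy (Nos3, adjusted p = 0.026, beside 3.82% of all genes), in 2 under INDO (Nos3, 0.0344, and Arg1, 0.0479, beside 2.66%) and in 3 under 6 Gy + INDO (Nos3, 0.000335, Arg1, 0.0111, and Ass1, 0.0341, beside 33.6%). Without day 15 it passed for Nos3 in 6 Gy + INDO alone, and the adjusted p was 0.607 in 6 Gy and 0.903 in INDO. The Arg1 and Ass1 differences did not pass without day 15 either (0.199 in INDO, 0.193 and 0.162 in 6 Gy + INDO). Other days mattered as well. Arg1 did not pass without day 1 (0.418 in INDO and 0.235 in 6 Gy + INDO), nor Ass1 without day 7 (0.221). In INDO, Nos3 also missed without day 1 (0.0687) or day 3 (0.0745), and Arg1 without day 3 (0.052) or day 23 (0.0558). Without the high-receptor tumors the differences of Arg1 (0.0827) and Ass1 (0.302) in 6 Gy + INDO and of Arg1 in INDO (0.153) did not pass. When 1 tumor number was left out at a time, the difference for Nos3 passed in 5 of 5 fits in 6 Gy + INDO, whereas the calls for Nos3 in 6 Gy and in INDO, Arg1 in INDO and Ass1 in 6 Gy + INDO were each lost in 4 of 5 fits and that for Arg1 in 6 Gy + INDO in 3 of 5. In 6 Gy + INDO the difference for Nos2 (adjusted p = 0.081) passed under housekeeping scaling (0.0298) and without day 3 (0.0203), and that for Tdo2 (0.117) under housekeeping scaling (0.0433). Under the same scaling the Nos3 differences in 6 Gy (0.0738) and INDO (0.201) did not pass. That of Ass1 in 6 Gy + INDO did not pass under it either (0.164), nor with RLE factors (0.0618). In INDO, Nos3 (0.0543 and 0.0566) and Arg1 (0.0731 and 0.0611) did not pass with no filter on low counts or with the tumor numbers as a replicate block.

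Markers of endothelium moved with Nos3. Of 10 markers (Pecam1, Cdh5, Kdr and others, none at 0 in any tumor), 9, 8 and 8 fell on day 1 under 6 Gy, under INDO and under both, 9, 8 and 9 on day 3 and 10, 9 and 10 on day 7, with none called by edgeR on days 15 and 23. At most 21.2% of all genes fell in any arm on days 1, 3 and 7. At an unadjusted p under 0.05 edgeR gave none on day 15, beside 6.75%, 9.68% and 20.4% of all genes. On day 23 it gave 4, 7 and 3 of the 10, beside 14.2%, 13.3% and 25.6%. DESeq2 called 1 in INDO on day 23, beside 0.34% of all genes higher and 0.209% lower. Their summed level on days 1, 3 and 7 was 255 to 498 CPM in controls, and 98.1 to 192, 101 to 201 and 63.4 to 173 CPM in the 3 treated arms. On day 15 the controls were at 122 to 155 CPM. Relative to these markers all arms overlapped with control on day 3, with 25.6 to 34.4 CPM of Nos3 per 1000 CPM of markers in control tumors, 24.9 to 32.1 in 6 Gy, 19.7 to 37.9 in INDO and 22.0 to 35.2 in 6 Gy + INDO. On day 1 it was 25.5 to 34.4 in control, 27 to 38.0 in 6 Gy, 37.7 to 47.4 in INDO and 40.2 to 44.9 in 6 Gy + INDO, so both arms with indomethacin lay above every control tumor. In bulk tumors fewer cells of a type and less RNA per cell cannot be told apart, and the part of endothelial content in the Nos3 result was not tested. Nos3 shares 294 exon bases, 7.12% of its own, with Atg9b and 1040 (25.2%) with Gm15587, both on the other strand, and the sources used here do not say whether counting used strand. Atg9b rose on day 1 in all 3 arms (0.61, 0.76 and 0.94 on the log2 scale, adjusted p = 0.0205, 0.00574 and 0.000702), and Gm15587 passed against control on no day.

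**Figure D3:**
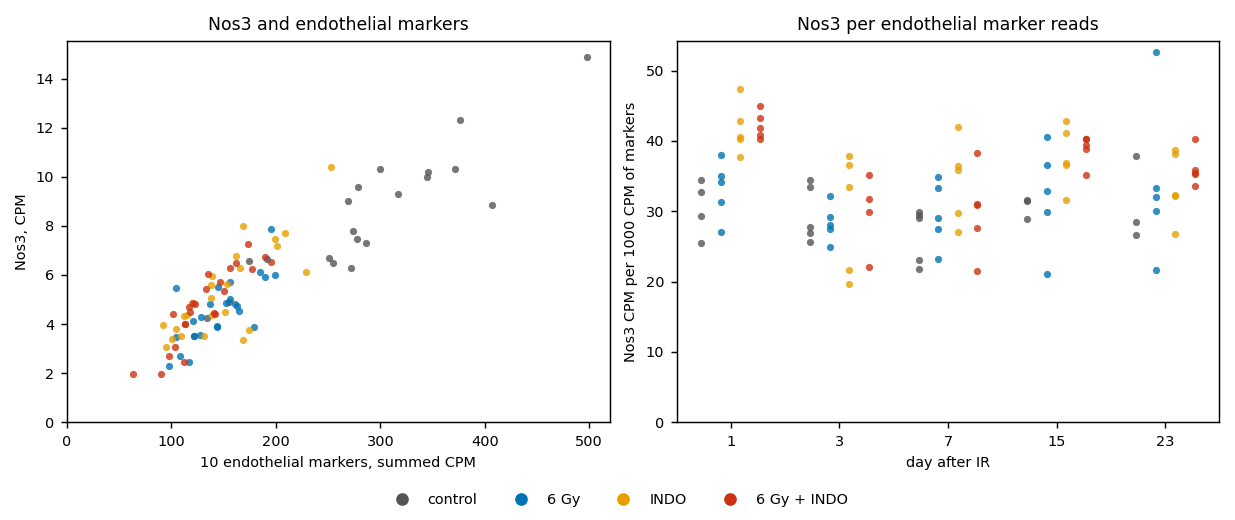
Left, Nos3 (CPM) against the summed CPM of 10 endothelial markers in each of 94 tumors. Right, Nos3 CPM per 1000 CPM of these markers by day after IR, with points for tumors and colors for arms. Control tumors of days 1, 3 and 7 filled the upper right of the left panel (255 to 498 CPM of markers), and the ratio ran from 19.7 to 52.6 over all tumors.

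Nos2 (chr11:78920787-78960254, plus strand), the inducible synthase, rose on day 7 in INDO. The control tumors held 96.2, 49.6, 135, 88.1 and 119 CPM, and the INDO tumors 157, 132, 200, 179 and 154 CPM. The groups overlapped by 1 pair of tumors only, the lowest INDO tumor lying under the highest control. The change was 0.82 (SE 0.26, adjusted p = 0.0314). It did not pass with all 94 tumors in 1 fit (0.75, adjusted p = 0.352) or with no filter on low counts (0.75, 0.0638). Nor did it pass in 5 of 20 fits that left out 1 tumor number of 1 arm (adjusted p up to 0.0743). All 5 left out a control or INDO tumor. On day 3 INDO tumors of Nos2 split widely, at 37.4, 220, 391, 33.2 and 178 CPM, beside controls of 139, 83.3, 23.6, 17.8 and 37.0 CPM (1.52, SE 0.77, adjusted p = 0.217). The tumor at 391 CPM also held 293 CPM of 10 summed T cell markers, when the median of its group was 12.7 CPM.

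On day 23 the means of Nos2 in all 3 treated arms were above control without passing. Control tumors held 64.2, 64.5 and 29.3 CPM, INDO tumors 149, 65.1, 111, 167 and 125 CPM, and 6 Gy + INDO tumors 120, 96.3, 112, 116 and 152 CPM. Neither arm overlapped with control, and the 6 Gy tumors (152, 80.5, 48.6, 128 and 170 CPM) did. The log2 changes were 1.15 (SE 0.37, adjusted p = 0.302) in 6 Gy, 1.24 (SE 0.37, 0.311) in INDO and 1.21 (SE 0.37, 0.0909) in 6 Gy + INDO. On day 15 the 6 Gy + INDO tumors held 307, 174, 117, 229 and 228 CPM against 53.5, 100 and 119 in control (1.20, SE 0.41, adjusted p = 0.118), and 1 tumor lay within the control range. DESeq2 called the 6 Gy + INDO change of Nos2 on both days, at 1.22 with an adjusted p of 0.0333 on day 15 and 1.22 with 0.0227 on day 23. On day 1 the 6 Gy + INDO tumors were at 4.18, 17.3, 5.05, 4.49 and 9.99 CPM and controls at 14.2, 9.86, 20.6 and 28.0 CPM (-1.15, SE 0.71, adjusted p = 0.255).

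Nos1 (chr5:117781032-117958840, plus strand), the neuronal synthase, passed in no comparison under trimmed-mean scaling in edgeR with all tumors. In 6 Gy + INDO against 6 Gy, averaged over days, it stood at 0.94 (SE 0.41, adjusted p = 0.0511), and it was called by DESeq2 (1.00, adjusted p = 0.0289), with RLE factors (1.00, 0.0395), under housekeeping scaling (1.25, 0.0108) and without day 15 (1.35, 0.0113). Its counts ran from 1 to 470 per tumor with a median of 17, and 2.4% of its exon bases lie opposite the antisense gene Gm26995. The highest tumor was a 6 Gy + INDO tumor of day 23 with 7.46 CPM, beside 0.309 to 0.928 CPM in the other 4 of its group and 0.111 to 0.619 in controls (2.53, SE 1.11, adjusted p = 0.165). That tumor also held 9060 CPM of 10 summed skeletal muscle markers, the highest sum of the 94 tumors, beside 26 to 759 CPM in the others of its group, and Nos1 is known to be expressed in skeletal muscle. Nos1 had a median of 0.947 CPM in the 11 high-receptor tumors and 0.272 CPM in the other 83. The part of muscle and of receptor reads in the Nos1 values was not tested.

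Arg1 (chr10:24915221-24927484, minus strand), the cytosolic arginase, fell on day 1 in 6 Gy + INDO. Control tumors held 177, 165, 207 and 205 CPM, INDO tumors 140, 127, 98.0, 114 and 53.2 CPM and 6 Gy + INDO tumors 76.7, 88.5, 119, 108 and 134 CPM. All tumors of both arms lay below all controls. The change was -0.84 in 6 Gy + INDO (SE 0.29, adjusted p = 0.0458) and -0.79 in INDO (SE 0.29, adjusted p = 0.076 by edgeR and 0.0403 by DESeq2). The 6 Gy tumors of that day spread over 106, 244, 252, 124 and 88.2 CPM (-0.21, SE 0.29, adjusted p = 0.679). The 6 Gy + INDO fall lost its call in 11 of 19 fits that left out 1 tumor number of 1 arm (adjusted p up to 0.112). These 11 include the fits without any 1 of the control tumors and those without 6 Gy + INDO tumor 1, 2, 3 or 4. The rest left out an INDO tumor. The call was also lost with all 94 tumors in 1 fit (0.0632), under housekeeping scaling (0.0565) and with the tumor numbers as a replicate block (-0.72, adjusted p = 0.11).

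Later days showed no Arg1 call by edgeR under trimmed-mean scaling. On day 7 INDO tumors reached the highest Arg1 levels of the series, at 323, 160, 656, 517 and 536 CPM beside 312, 271, 312, 289 and 263 CPM in control (0.65, SE 0.33, adjusted p = 0.148). The INDO arm lay on both sides of the narrow control range. On day 15 the control tumors held 71, 95.9 and 215 CPM and the 6 Gy + INDO tumors 220, 303, 277, 251 and 393 CPM. These groups did not overlap, and the change was 1.17 (SE 0.31, adjusted p = 0.0629 by edgeR and 0.00398 by DESeq2, which estimated 1.18). Under housekeeping scaling this change passed in edgeR too (1.44, adjusted p = 0.0221). The log2 differences on that day were 0.66 (SE 0.30, adjusted p = 0.715) in 6 Gy and 0.94 (SE 0.30, 0.361) in INDO. Markers of macrophages and monocytes, in which Arg1 and Nos2 are known to be expressed, summed to 2560 to 3250 CPM in day 1 controls. In treated tumors of that day they summed to 900 to 1660 CPM. Of the 12 markers 7 fell in each arm, beside 9.43%, 8.89% and 13.3% of all genes. On day 15 the sums were 710 to 899 CPM in control and 804 to 1250 CPM in 6 Gy + INDO. None of the 12 was called there in edgeR, beside 0.778% of all genes higher and 0.552% lower. At an unadjusted p under 0.05 edgeR gave 2, beside 20.4% of all genes. DESeq2 called 1, beside 4.07% higher and 3.89% lower. The part of these cells in the Arg1 and Nos2 values was not tested.

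Arg2 (chr12:79130777-79156301, plus strand), the mitochondrial arginase, fell in all 3 arms on day 1. Control tumors held 7.25, 4.64, 5.49 and 5.74 CPM and 6 Gy tumors 3.97, 4.25, 4.72, 3.86 and 3.02 CPM. INDO tumors held 2.96, 2.43, 2.93, 2.76 and 2.22 CPM, and 6 Gy + INDO tumors 2.58, 3.33, 2.35, 1.96 and 2.46 CPM. The tumors given indomethacin, alone or with 6 Gy, all lay below every control, and 1 of the 6 Gy tumors lay just above the lowest control. The changes were -0.53 in 6 Gy (SE 0.17, adjusted p = 0.0399), -1.08 in INDO (SE 0.17, 0.000316) and -1.18 in 6 Gy + INDO (SE 0.17, 8.4e-05). The 6 Gy change lost its call with no filter (-0.56, 0.0912), with the replicate block (-0.49, 0.0818) and with all 94 tumors in 1 fit (-0.54, 0.459). It also lost it in 6 of 19 fits that left out 1 tumor number of 1 arm. All 6 left out a control or 6 Gy tumor. The INDO change lost its call with all 94 tumors in 1 fit (-1.12, adjusted p = 0.0505).

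Arg2 on day 3 was at 3.78, 3.15, 4.23 and 2.87 CPM in 6 Gy + INDO and at 9.19, 11.9, 8.07, 5.51 and 5.24 CPM in control, without overlap but without a call (-1.15, SE 0.47, adjusted p = 0.087), though it was called with all 94 tumors in 1 fit (-1.18, 0.0099) and with no filter (-1.18, 0.0439). Of these 4 tumors 3 were high-receptor ones. The 6 Gy tumors of day 3 included 1 at 23.5 CPM, the others lying between 3.24 and 5.23. Without that tumor Arg2 was lower in 6 Gy (-0.85, adjusted p = 0.0451, against 0.05 and 0.963 with it) and in 6 Gy + INDO (-1.13, 0.00635). From day 7 the arms overlapped with control, at 4.5 to 20.9 CPM in control and 5.17 to 26.5 CPM in treated tumors. In 6 Gy + INDO on day 7 it stood at -0.65 (SE 0.29, adjusted p = 0.0678), and was called by DESeq2 (-0.67, 0.045) and with no filter (-0.78, 0.0234). Arg2 shares 285 exon bases (20% of its own) with Vti1b and 116 (8.12%) with Gm48780, both on the opposite strand, and neither passed on day 1. Vti1b, a vesicle fusion protein, fell over the 5 days in INDO (-0.33, adjusted p = 5.4e-05) and in 6 Gy + INDO (-0.37, adjusted p = 3.78e-06). Neutrophil markers summed to 185 to 345 CPM in day 1 controls, 97.4 to 347 in 6 Gy, 95.1 to 254 in INDO and 102 to 248 in 6 Gy + INDO, and 4, 4 and 5 of the 7 tested fell, beside 9.43%, 8.89% and 13.3% of all genes. Their part in the Arg2 values was not tested.

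Ass1 (chr2:31470207-31520672, plus strand), the rate-limiting enzyme of arginine resynthesis, fell on day 7. Control tumors held 74.2, 61.9, 80, 100 and 79.8 CPM, 6 Gy tumors 57.9, 54.1, 45.7, 44.8 and 51.8 CPM, and 6 Gy + INDO tumors 62.3, 26.5, 39.5, 34.2 and 46.0 CPM. No 6 Gy tumor reached the control range, and 1 of the 6 Gy + INDO tumors did. Ass1 fell by 0.64 on the log2 scale in 6 Gy (SE 0.18, adjusted p = 0.0227) and by 0.84 in 6 Gy + INDO (SE 0.19, adjusted p = 0.00184). INDO tumors held 53.6, 67.1, 40.1, 54.8 and 57.4 CPM (-0.47, SE 0.18, adjusted p = 0.068), a change called by DESeq2 (-0.50, 0.0388) and without the high-receptor tumors (-0.48, 0.0476). Under housekeeping scaling the changes were -0.46 (adjusted p = 0.0989) and -0.27 (0.223), and without the high-receptor tumors that of 6 Gy + INDO was -0.65 (0.0552). The 6 Gy call was lost in 3 of 20 fits that left out 1 tumor number of 1 arm (adjusted p up to 0.0582). All 3 left out a control or 6 Gy tumor. On day 3 the 6 Gy + INDO tumors (22.4, 30.8, 30.2 and 35.5 CPM) lay below all controls (41.8, 41.4, 58.8, 36.4 and 50 CPM) with an adjusted p of 0.0501 (-0.58, SE 0.20), and were called lower by DESeq2 (-0.55, 0.0325), with all 94 tumors in 1 fit (-0.62, 0.0186) and with no filter (-0.62, 0.0246).

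Promoters of Ass1, Nos1 and Tdo2 were among the 32851 held of RefSeq (GRCm38.p6), and the 250 bases before each start were searched on both strands. Of 4 short motifs, GAAANNGAA (interferon type, in 7.1% of all promoters), TTCNNNGAA (STAT type, 7.0%), GGGANTNTC (NF-kappaB type, 3.0%) and ACGTG (the core that hypoxia-inducible and E-box factors bind, 16.6%), Nos1 and Tdo2 held none and Ass1 held ACGTG only. The match lies in CACGTG, a form of the E box that 6.02% of promoters hold and that was looked at after ACGTG was found. It starts 36 bases before the RefSeq start, which lies 63 bases after the GENCODE start of the gene, so the stretch shown is inside the gene as GENCODE annotates it. It lies at chr2:31470224-31470249 with 10 flanking bases on each side, and is shown with the motif in capitals because Ass1 is the recycling enzyme that fell in 2 arms.
Ass1 site: cgcccgtcccCACGTGtcccaggttc
The match is a run of letters and does not say that a factor binds there.

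Asl (chr5:130011258-130029247, minus strand), which releases arginine in the next step, varied least. On day 7 control tumors held 22.1, 23.2, 27.2, 29.3 and 27.2 CPM and 6 Gy + INDO tumors 24.1, 21.7, 15.1, 20.9 and 13.6 CPM. Asl fell by 0.35 (SE 0.12, adjusted p = 0.0252) under trimmed-mean scaling, whereas scaling by housekeeping genes turned the change to 0.19 (adjusted p = 0.0847). The call was lost in 3 of 20 fits that left out 1 tumor number of 1 arm (adjusted p up to 0.0732). All 3 left out a control or 6 Gy + INDO tumor. The tumors at 21.7, 15.1 and 13.6 CPM were the high-receptor ones of the 6 Gy + INDO arm. On day 3 its 3 high-receptor tumors held 14, 11.2 and 14.7 CPM of Asl and the fourth 24.5 CPM (-0.42, SE 0.20, adjusted p = 0.135, and -0.46, 0.0134 with all 94 tumors in 1 fit). Over the series the 11 high-receptor tumors held 11.2 to 21.7 CPM (median 14.8) and the other 83 held 14.6 to 29.3 CPM (median 21.9). Without them the day 7 change was -0.13 (adjusted p = 0.421).

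Ido1 (chr8:24584136-24597009, minus strand), the interferon-induced tryptophan enzyme, passed in no comparison with all tumors and varied widely within groups. Averaged over days it stood at -0.78 in 6 Gy (SE 0.37, adjusted p = 0.135) and at -1.37 (0.00911) without the tumors numbered 1, which include the 6 Gy tumors at 12.9 CPM on day 3 and 6.2 CPM on day 15. On day 7 INDO tumors held 5.8, 6.76, 7.16, 7.64 and 7.97 CPM, 6 Gy tumors 4.16, 2.66, 0.818, 2.26 and 2.81 CPM, and control tumors 2.7, 3.78, 4.78, 10.5 and 3.18 CPM. The INDO and 6 Gy arms did not overlap with each other, and both overlapped with control (0.57, SE 0.52, adjusted p = 0.427 in INDO and -0.97, SE 0.52, 0.218 in 6 Gy). On day 1 the 6 Gy tumors included 1 at 3.18 CPM among 0.15 to 0.591, the INDO tumors 1 at 8.61 among 0.31 to 1.3 and the 6 Gy + INDO tumors 1 at 2.42 among 0.196 to 0.388. T cell markers on day 7 summed to 16.9 to 55.7 CPM in control, 6.27 to 10.8 in 6 Gy, 19.1 to 37.2 in INDO and 5.41 to 26.8 in 6 Gy + INDO, with 10, 0 and 3 of 10 lower, beside 10.3%, 11.7% and 21.2% of all genes. Their part in the Ido1 values was not tested.

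Tdo2 (chr3:81957090-81976202, minus strand), the other tryptophan-opening enzyme, stayed between 0.415 and 2.97 CPM, on 12 to 161 counts per tumor. Its largest difference from control was on day 3 in 6 Gy + INDO, at 2.51, 1.87, 1.66 and 2.22 CPM against 0.947, 0.918, 1.18, 1.44 and 1.48 CPM. The groups did not overlap, and 3 of the 4 tumors of 6 Gy + INDO were high-receptor ones. The change missed the threshold in edgeR (0.82, SE 0.30, adjusted p = 0.0589) and passed in DESeq2 (0.85, 0.0242), with RLE factors (0.87, 0.0479), with all 94 tumors in 1 fit (0.79, 0.0209) and under housekeeping scaling (1.31, 0.0121).

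Averaged over the 5 days, members were called as follows under trimmed-mean scaling, with Nos3 counted among the falls of every arm. In 6 Gy, 1 of 9 fell and none rose, near the 10.6% and 9.19% of all genes. In INDO 3 fell and 1 rose, beside 17.4% and 16.8%, and in 6 Gy + INDO 4 fell and none rose, beside 23.2% and 29.6%. The median log2 changes of the 9 genes were -0.16, -0.03 and -0.27, and those of all genes 0.03, 0.07 and 0.19. Nos3 fell in each arm, by 0.72 (SE 0.12, adjusted p = 2.42e-06), 0.54 (SE 0.12, 0.000287) and 0.73 (SE 0.12, 7.84e-07). Arg2 fell by 0.77 in 6 Gy + INDO (SE 0.17, adjusted p = 9.59e-05) and by 0.42 in INDO (SE 0.16, 0.0403). Ass1 fell by 0.37 in 6 Gy + INDO (SE 0.10, 0.00119) and by 0.28 in INDO (SE 0.10, 0.0206). Asl fell by 0.27 in 6 Gy + INDO (SE 0.07, 0.000651), which was 0.05 under housekeeping scaling (adjusted p = 0.508) and -0.12 without the high-receptor tumors (0.196). Under housekeeping scaling Arg1 (0.53, adjusted p = 0.000977) and Tdo2 (0.50, 0.00361) rose in 6 Gy + INDO, where the main values were 0.19 (SE 0.14, 0.291) and 0.15 (SE 0.13, 0.367), and Arg1 also passed without day 1 (0.42, 0.0233). Nos2 rose in INDO (0.78, SE 0.27, adjusted p = 0.0182).

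Several of these calls were lost when single days or tumor numbers were left out, which also leaves fewer tumors. The Nos2 rise in INDO did not pass without day 3 (0.61, adjusted p = 0.0584), day 7 (0.80, 0.0812) or day 23 (0.65, 0.0998), or without the tumors numbered 3 (0.68, 0.141), among them the one at 391 CPM. The Arg2 fall in INDO did not pass in DESeq2 (-0.39, 0.0625), without day 1 (-0.26, 0.37), with the replicate block (-0.38, 0.0609) or in 4 of 5 fits without 1 tumor number. It also missed with RLE factors (-0.39, 0.0597), with no filter (-0.41, 0.0689) and under housekeeping scaling (-0.24, 0.262), and without day 7 (-0.46, 0.0891) or day 15 (-0.34, 0.126). The Ass1 fall did not pass under housekeeping scaling (-0.11, adjusted p = 0.403 in INDO and -0.04, 0.79 in 6 Gy + INDO), nor without day 7 (-0.19, 0.219 and -0.22, 0.123), and in INDO not without day 1 (-0.23, 0.107), day 3 (-0.25, 0.0872) or 1 of the tumor numbers (adjusted p up to 0.252).

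The arms that received 6 Gy were compared with and without the drug. In 6 Gy + INDO against 6 Gy, 2 of 9 fell and none rose, beside 19.8% and 25.9% of all genes. Arg2 fell by 0.50 (SE 0.16, adjusted p = 0.00655) and Asl by 0.31 (SE 0.06, adjusted p = 9.32e-05). Without the high-receptor tumors these were -0.47 (adjusted p = 0.104) and -0.11 (0.278), and under housekeeping scaling -0.17 (0.348) and -0.04 (0.528). Housekeeping scaling instead called rises of Nos1 (1.25, adjusted p = 0.0108) and Arg1 (0.40, 0.00699), and DESeq2 and RLE factors also called that of Nos1. The Arg2 change was -0.30 without day 3 (0.124). Ass1 (-0.21, SE 0.09, adjusted p = 0.0542) passed without day 15 (-0.31, 0.0107) or day 23 (-0.30, 0.0161). Nos3 did not differ past the threshold (-0.01, SE 0.11). In 6 Gy + INDO against INDO no member passed in edgeR or DESeq2, beside 7.21% of all genes higher and 3.54% lower in edgeR. In edgeR 4 members (Nos2, Arg2, Asl and Ido1) had an unadjusted p under 0.05, beside 25.6% of all genes. The log2 differences were -0.93 for Ido1 (SE 0.35, adjusted p = 0.0741) and -0.54 for Nos2 (SE 0.25, adjusted p = 0.149). Without day 15, Nos2 (-0.91, adjusted p = 0.0176), Arg2 (-0.57, 0.00936) and Asl (-0.24, 0.0152) fell.

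The share of higher genes among all calls depended on the scaling. Scaling by housekeeping genes moved the median change of all genes averaged over days from 0.07 to 0.23 in INDO, from 0.19 to 0.50 in 6 Gy + INDO, from 0.19 to 0.47 in 6 Gy + INDO against 6 Gy and from 0.05 to 0.21 against INDO. The share went from 49.1% to 81.2%, from 56% to 91.7%, from 56.6% to 95.7% (66.7% in DESeq2) and from 67.0% to 97.5% in these 4 comparisons. On single days the median moved most on day 7, from 0.02 to 0.19, from 0.02 to 0.30 and from 0.03 to 0.59 in the 3 arms, and in 6 Gy + INDO from -0.02 to 0.42 on day 3, from -0.03 to 0.11 on day 15 and from 0.04 to 0.35 on day 23. It moved from 0.04 to 0.17 in 6 Gy on day 23 and from 0.01 to 0.16 in INDO on day 15. In 6 Gy the share of higher calls went from 39.5% to 14.8% on day 1, from 46.9% to 36.6% on day 3 (58.0% with RLE factors) and from 35.6% to 61.9% on day 7. In INDO it went from 37.6% to 23.4% on day 3 and from 52.0% to 89.6% on day 7. In 6 Gy + INDO it went from 51.7% to 94.7% on day 3 (71.8% in DESeq2), from 53.9% to 93.8% on day 7 (66.5% in DESeq2) and from 58.5% to 83.6% on day 15. Among called members only Asl changed direction with it.

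Nos2 was then set against Arg1 in each tumor, the pairing in which the same arginine can go to nitric oxide or to ornithine. Per base of exon Nos2 stood at 0.0177 to 1.08 times Arg1 (median 0.182), and was above it in 1 of 94 tumors, the INDO tumor of day 3 with 391 CPM of Nos2 and 182 CPM of Arg1. With the means of the 20 groups removed, log2 levels of the 2 genes gave, over all 94 tumors, Pearson's r = 0.20 and Spearman's rho = 0.20 (permutation p = 0.074 and 0.0756, adjusted over 5 relations 0.123 and 0.126). Within control tumors (n = 20) r was 0.46 and rho 0.61 (permutation p = 0.00317 and 0.00341, adjusted 0.0158 and 0.017), and r was 0.61 without the 2 tumors farthest from the median of Arg1. Tumors of 6 Gy gave r = 0.40 and rho = 0.43 (permutation p = 0.0502 and 0.0407, adjusted 0.123 and 0.102), and r = 0.36 without 2. INDO gave r = 0.09 and rho = 0.07 (permutation p = 0.685 and 0.767, adjusted 0.685 and 0.767) and r = -0.17 without 2. 6 Gy + INDO gave r = -0.21 and rho = -0.17 (permutation p = 0.439 and 0.487, adjusted 0.549 and 0.609) and r = -0.24 without 2. Whether the arms differ in this relation was not tested. With group means kept, which adds the differences between days, r was 0.25 in control, 0.42 in 6 Gy, 0.55 in INDO and 0.73 in 6 Gy + INDO. The control relation did not pass under housekeeping scaling (r = 0.51, adjusted p = 0.128) or without the tumors numbered 1 (r = 0.30, 0.076), 2 (0.53, 0.0525) or 3 (0.52, 0.0782).

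**Figure D4:**
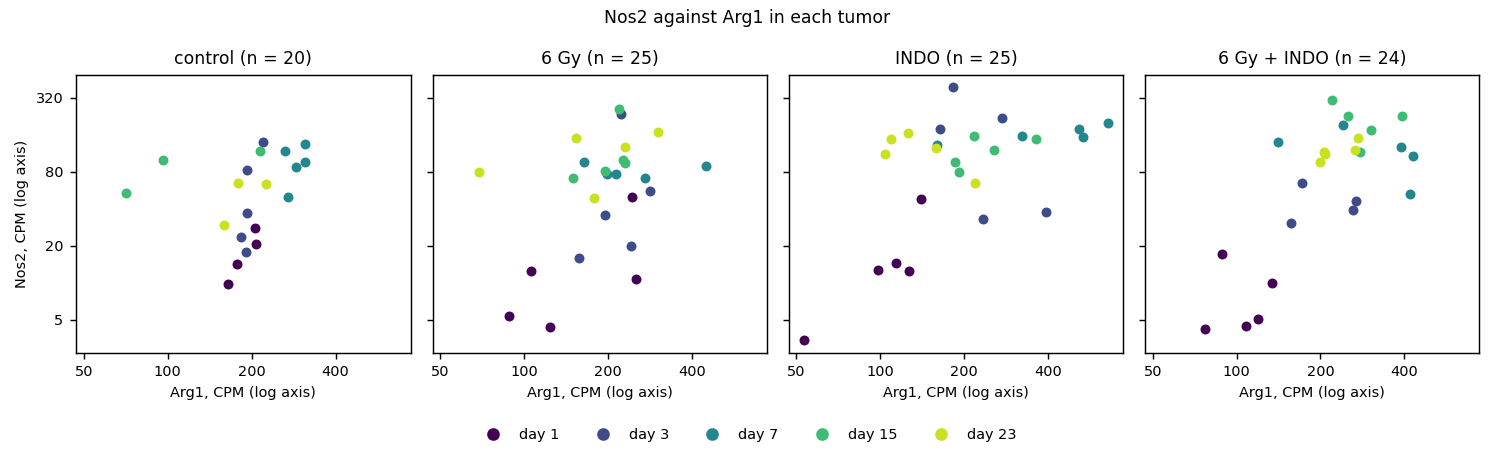
Nos2 against Arg1 in each tumor (CPM, both axes logarithmic), 1 panel per treatment arm, with colors for days after IR. Day 1 tumors had 3.43 to 50.1 CPM of Nos2, and the INDO tumor of day 3 with 391 CPM stood highest.

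The log2 ratio of Nos2 to Arg1 (0.5 CPM added to each) had a control mean of -3.43 on day 1, -2.11 on day 3, -1.64 on day 7, -0.40 on day 15 and -1.89 on day 23. Over all tumors it ran from -4.69 to 1.10 with a median of -1.47. Of 15 comparisons with control, none passed an exact two-sided permutation test after adjustment (smallest adjusted p = 0.268). The smallest p that the group sizes allow, 0.00794 on days 1, 3 and 7 and 0.0179 on days 15 and 23, could not pass for a single comparison after adjustment over 15, so these tests say nothing of whether the ratios differ. On day 23 the control tumors averaged -1.89 ± 0.48 (SD, n = 3). The 6 Gy + INDO tumors averaged -0.95 ± 0.14 (n = 5), above all controls (difference 0.95, exact permutation p = 0.0179, which is the smallest that 5 against 3 allows). The differences on that day were 1.67 in INDO (exact permutation p = 0.0536, adjusted 0.335) and 1.23 in 6 Gy (0.0893, adjusted 0.335). On days 1, 3 and 7 every arm overlapped with control, and the differences lay between -0.35 and 1.06.

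**Figure D5:**
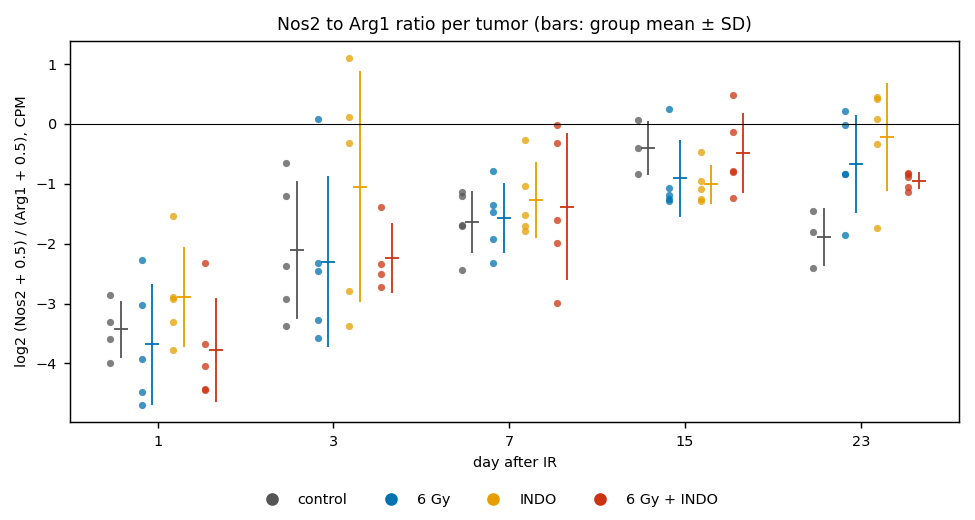
Log2 ratio of Nos2 to Arg1 in each tumor by day after IR (points), with group means and SDs as bars and colors for arms. On day 23 the 3 control tumors (-2.41 to -1.46) lay below the 5 tumors of 6 Gy + INDO (-1.14 to -0.82), and on the other days control and treated tumors overlapped.

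The genes around the 9 enzymes were counted over the 5 days, when 10.6%, 17.4% and 23.2% of all genes fell and 9.19%, 16.8% and 29.6% rose in 6 Gy, INDO and both, with all-gene medians of 0.03, 0.07 and 0.19. In this and the next 2 paragraphs the calls are those under trimmed-mean scaling with all tumors. The genes named are the up to 4 called genes of each list with the smallest p, so they do not stand for their list. Housekeeping scaling moved the all-gene medians to 0.06, 0.23 and 0.50, and the changes of these neighbouring genes under it are not given. Of 10 cofactor enzymes, inhibitors and binding partners, 1 rose and 4 fell in 6 Gy, 6 fell in INDO and 7 fell in 6 Gy + INDO, with median log2 changes of -0.12, -0.39 and -0.35. The 4 that fell in all arms were Cav1, the caveolar protein that holds Nos3 inactive (-0.56, -0.85 and -0.84), Nostrin, which traffics Nos3 (-0.44, -0.49 and -0.67), Ddah1, which degrades the methylated arginines that inhibit the synthases (-0.39, -0.57 and -0.45), and Spr, which makes the cofactor tetrahydrobiopterin (-0.21, -0.30 and -0.40). Of 5 genes of nitric oxide reception and cyclic GMP signalling, 4 fell in each arm (medians -1.24, -0.83 and -1.03). The guanylate cyclase subunits Gucy1b1 (-1.33, -0.83 and -1.37), Gucy1a1 (-1.83, -1.14 and -1.50) and Gucy1a2 (-1.24, -0.71 and -0.60) fell, as did the cyclic GMP phosphodiesterase Pde5a (-0.91, -1.01 and -1.03). Gucy1b1, Gucy1a1 and Gucy1a2 were rare, with medians of 1.1, 0.933 and 0.492 CPM. Fibroblast markers, as well as those of endothelium, moved with this group, with 8 of 8 lower in each arm.

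Of 15 genes of arginine transport, urea cycle and polyamines 14 were tested, and 1 rose in 6 Gy, 2 rose and 5 fell in INDO, and 2 rose and 5 fell in 6 Gy + INDO, with medians of 0.07, -0.09 and -0.16. The rises of 1 to 2 of 14 were near or under the shares of all genes. Oat, which takes ornithine towards proline, fell in INDO (-0.49, SE 0.08) and in 6 Gy + INDO (-0.63, SE 0.08). Odc1, which opens polyamine synthesis from ornithine, fell in the same arms (-0.34 and -0.43, SE 0.06 each), and so did its antizyme Oaz1 (-0.44 and -0.71, SE 0.09 each). In 6 Gy the log2 changes were -0.18 for Oat, -0.04 for Odc1 and -0.22 for Oaz1 (adjusted p = 0.0896, 0.748 and 0.0565). Cps1, the enzyme that feeds the liver urea cycle, is counted among the rises of 6 Gy + INDO on 42 counts in 12 of 24 tumors, 16 of them in 1 tumor, beside 4 counts in 4 of 20 controls, so no fold is given.

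Of 15 genes of tryptophan transport and breakdown 14 were tested, and 1 rose and 4 fell in 6 Gy, 2 rose and 3 fell in INDO, and 2 rose and 7 fell in 6 Gy + INDO, with medians of -0.15, 0.04 and -0.20. In INDO these counts were close to the shares of all genes. Ido2, the paralog of Ido1, rose in INDO (1.38, SE 0.27, adjusted p = 6e-05) and in 6 Gy + INDO (0.75, SE 0.27, 0.0155), and in 6 Gy + INDO against 6 Gy (0.96, SE 0.25, 0.00118). The downstream genes Kmo, the kynurenine hydroxylase, and Kynu, the kynureninase, fell in 6 Gy (-0.71 and -0.82) and in 6 Gy + INDO (-1.05 and -0.68), and in INDO stood at -0.33 (adjusted p = 0.089) and 0.01. Qprt, which leads into NAD synthesis, fell in all 3 (-0.91, -0.50 and -0.85).

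Genes with levels most like those of 4 members were ranked by Pearson's r of log2 CPM over the 94 tumors among 29372 genes, as a description in which points share groups and libraries. Nos2 was nearest to Cd274, which encodes the checkpoint ligand PD-L1 (r = 0.91, and 0.82 with group means removed), Irak2, a kinase of Toll-like and interleukin receptor signalling (0.91 and 0.81), Acod1, the itaconate enzyme of activated macrophages (0.88 and 0.74), Gm43181 (0.88 and 0.74) and Ccrl2 (0.88 and 0.75). Arg1 was nearest to Slc7a2, a cationic amino acid transporter that carries arginine (0.83 and 0.75), then C3 (0.74), Mmp12 (0.72), Cd84 and Abcb1a (0.71 each). Ass1 was nearest to Mipep (0.78), Plin2, Upp1, H2-M3 and Def8 (0.77 each). Ido1 was nearest to the chemokine Cxcl11 (0.89 and 0.85), the guanylate-binding protein Gbp5 (0.88 and 0.85), Apol6, Tapbpl and Batf2 (0.87 each). Among the members themselves, Nos2 was nearest to Arg2 (0.80, and 0.65 with group means removed) and Ido1 (0.70 and 0.59), and Nos3 ran against Arg2 within groups (-0.49).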

How the data were processed

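Total RNA was sequenced from 94 tumors. Per the labels and the study's methods, libraries were stranded total RNA; the submitters' processing notes name cutadapt, STAR and Partek 11.0.24.0328 with mm10, while counter, annotation and strand setting are not given in the sources used here. For 49080 genes the authors deposited expected counts, 84.5% of which were whole, and the rest were rounded to whole numbers. Totals ran from 21 to 109 M, and no 2 columns were identical.

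Members and lists were chosen with earlier results of these data known. Named are all 9 members, up to 4 genes per pathway list and the 5 most alike genes of 4 members. The pathway genes named are those with the smallest p among the genes called against control averaged over days. R 4.3.3 with edgeR 4.0.16 (TMM factors, filtered low counts, quasi-likelihood test) was fitted within each day (21133 to 22276 genes) and over all 94 tumors with 20 group means (29373 genes), with Benjamini-Hochberg adjustment. Fits were tested on simulated data. Nos2 against Arg1 used scipy 1.17.1, with permutations of tumors within groups. Alternatives were DESeq2 1.42.0, RLE factors, scaling by 14 housekeeping genes, no filter, a replicate block, 1 fit of all tumors, and leaving out tumor numbers, days or high-receptor tumors. Exon lengths and positions are from GENCODE M21 (GRCm38), and promoters from RefSeq.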

Additional observations from a re-analysis of the deposited data

Results flagged for a closer look

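A tumor stood apart from the others of its group in 27 of 162 sets of 1 gene in 1 group, by the gap to its nearest neighbour as a share of the group's range. For normally distributed values chance flags about 1 in 20. The gaps were taken on CPM without a logarithm, so that rate may not hold here. The tumor was the highest in 25 and the lowest in 2. For Nos1 such a tumor was found in 6 Gy on day 3 at 1.47 CPM (others 0.0887 to 0.431), 6 Gy on day 15 at 1.03 CPM (others 0.191 to 0.338), 6 Gy on day 23 at 0.623 CPM (others 0.0679 to 0.204) and 6 Gy + INDO on day 23 at 7.46 CPM (others 0.309 to 0.928). Nos1 had further ones in INDO on day 3 at 1.49 CPM (others 0.052 to 0.139), INDO on day 23 at 0.421 CPM (others 0.0232 to 0.103) and control on day 3 at 1.09 CPM (others 0.318 to 0.502). For Nos2 such a tumor was found in 6 Gy on day 1 at 50.1 CPM (others 4.34 to 12.5), 6 Gy on day 3 at 236 CPM (others 16 to 56.2), 6 Gy on day 15 at 260 CPM (others 70.9 to 99.3) and INDO on day 1 at 48.0 CPM (others 3.43 to 14.6). For Nos3 such a tumor was found in INDO on day 3 at 6.29 CPM (others 3.34 to 3.81). For Arg1 such a tumor was found in control on day 3 at 219 CPM (others 183 to 193). For Arg2 such a tumor was found in 6 Gy on day 3 at 23.5 CPM (others 3.24 to 5.23) and INDO on day 7 at 7.94 CPM (others 13.0 to 14.8) as the lowest. For Ass1 such a tumor was found in 6 Gy on day 1 at 43.3 CPM (others 21.3 to 25) and 6 Gy on day 23 at 52.3 CPM (others 30.9 to 37.0). For Asl such a tumor was found in INDO on day 3 at 14.6 CPM (others 22.1 to 22.2) as the lowest and control on day 1 at 24.1 CPM (others 18.5 to 18.9). For Ido1 such a tumor was found in 6 Gy on day 1 at 3.18 CPM (others 0.15 to 0.591), 6 Gy on day 3 at 12.9 CPM (others 0.31 to 2.73), 6 Gy on day 15 at 6.2 CPM (others 0.466 to 1.75) and 6 Gy + INDO on day 1 at 2.42 CPM (others 0.196 to 0.388). Ido1 had further ones in 6 Gy + INDO on day 3 at 5.02 CPM (others 1.24 to 1.6), INDO on day 1 at 8.61 CPM (others 0.31 to 1.3) and control on day 7 at 10.5 CPM (others 2.7 to 4.78). For Tdo2 such a tumor was found in control on day 7 at 1.64 CPM (others 1.01 to 1.14). The same 6 Gy tumor of day 3, number 1, stood apart for Nos2, Arg2 and Ido1, and number 1 of INDO on day 1 and number 2 of 6 Gy on day 1 stood apart for Nos2 and Ido1.

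The difference from control was not the same on all days, by a test over the 5 days in edgeR's quasi-likelihood fit, for Nos3 in 6 Gy (adjusted p = 0.026), INDO (0.0344) and 6 Gy + INDO (0.000335), for Arg1 in INDO (0.0479) and 6 Gy + INDO (0.0111), and for Ass1 in 6 Gy + INDO (0.0341).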

How the results depend on the processing

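Counts of members called, by setting, where they moved; genes that gained a call are named with the results. Under housekeeping scaling they were 2 for INDO averaged over days, 3 for days in controls, 0 and 1 for the difference between days in 6 Gy and INDO, 0 for INDO on day 3, 2 for 6 Gy + INDO on day 3, 1 for 6 Gy and 2 for INDO on day 7, and 1 for 6 Gy + INDO on day 15. Asl turned to 0.19 on day 7 and 0.05 averaged over days in 6 Gy + INDO. DESeq2 gave 3 for INDO on day 1, 3 for 6 Gy + INDO on day 3, 3 for INDO on day 7, and 2 and 1 for 6 Gy + INDO on days 15 and 23. RLE factors gave 2 for 6 Gy + INDO on day 3 and 2 for INDO on day 7. No filter gave 1 for 6 Gy on day 1, 3 for 6 Gy + INDO on day 3, 0 for INDO on day 7 and 0 for the difference between days in INDO. All 94 tumors in 1 fit gave 1 for 6 Gy and 0 for INDO on day 1 and 5 for 6 Gy + INDO on day 3. Without the high-receptor tumors counts were 0 for 6 Gy + INDO on day 3, 3 for INDO and 1 for 6 Gy + INDO on day 7, 0 for 6 Gy + INDO against 6 Gy, and 1 and 1 for the difference between days under INDO and under both. The limits of the study (unadjusted p of 0.05 and a 2-fold change) gave 0 for each arm averaged over days and for 6 Gy + INDO against 6 Gy, 0 and 1 for 6 Gy and 6 Gy + INDO on day 1, 2 for 6 Gy + INDO on day 3, 1, 0 and 1 on day 7, 2 for 6 Gy + INDO on day 15, and 1, 1 and 2 on day 23. Without day 1 counts were 2 for INDO averaged over days, 3 for days in controls and 0 for the difference between days in INDO. Without day 3 they were 2 for INDO, 1 for 6 Gy + INDO against 6 Gy and 0 for the difference in INDO, and without day 7 they were 1 for INDO and 2 for days in controls. Without day 15 they were 4 for 6 Gy + INDO against 6 Gy, 3 against INDO, and 0, 0 and 1 for the difference between days under 6 Gy, under INDO and under both, and without day 23 1 for the difference in INDO. The cause was not tested.

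Leaving out 1 tumor number gave 1 to 2 members for 6 Gy and 1 to 4 for INDO averaged over days, 0 to 2 for 6 Gy + INDO against INDO, 1 to 3 for days in controls, 0 to 1, 0 to 1 and 1 to 2 for the difference between days under 6 Gy, under INDO and under both, 1 to 2 for 6 Gy and 1 to 2 for INDO on day 1, 1 to 2 for 6 Gy and 1 to 3 for 6 Gy + INDO on day 3, 1 to 2 for 6 Gy and 0 to 3 for INDO on day 7, and 0 to 1 for 6 Gy + INDO on day 15. Calls were also gained, most often for Nos3 in INDO on day 7 (8 of 20 fits), Ass1 and Tdo2 in 6 Gy + INDO on day 3 (5 and 4 of 19) and Arg2 in 6 Gy + INDO on day 7 (3 of 20). For Nos2 against Arg1 it gave r of 0.30 to 0.53 in control, -0.10 to 0.20 in INDO and -0.35 to 0.08 in 6 Gy + INDO. In control r was 0.51 under housekeeping scaling, in INDO -0.13 without high-receptor tumors, and in 6 Gy + INDO 0.73 with group means kept, which adds the differences between days. Differences of the log2 ratio ranged in 6 Gy from -0.59 to 0.01 on day 1, -0.79 to 0.16 on day 3 and -0.13 to 0.26 on day 7, and in 6 Gy + INDO from -0.45 to 0.23 on day 3, -0.09 to 0.66 on day 7 and -0.34 to 0.13 on day 15.

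Tumors with the same number correlated between arms at -0.584 to 0.718. Their medians on days 1, 3, 7, 15 and 23 were -0.00898, 0.063, 0.039, 0.117 and 0.158. Tumors with other numbers had medians of 0.0288, 0.00337, 0.026, -0.0504 and -0.0391 on the same days. Whether the numbers pair tumors was not tested. With the replicate block the count was 1 for 6 Gy on day 1 and 0 for the difference between days in INDO, and Arg2 in INDO averaged over days (-0.38, adjusted p = 0.0609) and Arg1 in 6 Gy + INDO on day 1 (-0.72, 0.11) did not pass. DESeq2 was not run for the tests over days. Depth limits Nos1, Ido1 and Tdo2 most, with as few as 1, 9 and 12 counts in a tumor.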
